A study of Homo sapiens with 6 samples.

Results

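A set of 8 genes for enzymes of the mature red cell was followed: CA1, CA2, BPGM, PRDX2, CAT, BLVRB, ACHE and NT5C3A. They were grouped by what their products do in red cells, with earlier results of these data known. Their estimated reads and their TPM (abundance relative to transcript length and library total) were summed per gene over the transcripts of GENCODE release 29. All 8 were found among 33367 genes, and all 8 were among the 14075 genes with enough reads to test. The name cytosolic enzymes fits ACHE least, because the red cell form of acetylcholinesterase is held on the outer face of the plasma membrane.

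The libraries came from K562, an established human line of erythroleukaemia cells, which make embryonic and fetal globins. Per the labels, each clone carried a doxycycline-inducible short hairpin RNA (shRNA) and was kept under puromycin. The series asked how depletion of CDAN1, a gene mutated in congenital dyserythropoietic anaemia, changes gene expression relative to uninduced and non-targeting controls. Clone NT carried the non-targeting shRNA, and clones c1 and c2 carried the shRNA against CDAN1. The titles name the latter clone c2 while its deposited files are named C3, so every c2 value rests on the title.

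From each of the 3 clones there was 1 library without doxycycline (uninduced) and 1 with 1 µg/ml doxycycline (induced), both at day 4. The groups were therefore 1 uninduced NT, 1 induced NT, 2 uninduced CDAN1 shRNA and 2 induced CDAN1 shRNA libraries. Nothing in the labels gives separate cultures within a clone and state, so the spread behind each p-value is that among these 6 libraries. In fits without a term for the clone this spread includes the differences between clones. In the other fits it may be technical. Each shRNA line is a clone, so a difference between clones cannot be told apart from clonal variation. In bulk RNA, fewer cells of a type and less RNA per cell cannot be told apart.

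Red cells lose nucleus, mitochondria and ribosomes, and live on the soluble enzymes made before that loss. CA1 and CA2 are carbonic anhydrases, which convert carbon dioxide and water to bicarbonate and protons so that blood can carry carbon dioxide. BPGM, bisphosphoglycerate mutase, makes 2,3-bisphosphoglycerate in a side branch of glycolysis, which lowers the affinity of haemoglobin for oxygen. PRDX2, a thiol peroxidase, and CAT, catalase, remove hydrogen peroxide. BLVRB is an NADPH-dependent flavin and biliverdin reductase. NT5C3A, pyrimidine 5′-nucleotidase, clears the pyrimidine nucleotides left by RNA breakdown, and its deficiency causes haemolytic anaemia. ACHE, acetylcholinesterase, hydrolyses acetylcholine and carries the Cartwright blood group.

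For ACHE and NT5C3A the libraries held reads for transcripts that encode different ends or begin at different starts, and the sequences at those places are given first. The ACHE reading frame ends in 2 alternative stretches, read from the GENCODE 29 transcripts (GRCh38, minus strand, chr7:100890958-100891088 and chr7:100890214-100890335). As background, the ACHE-202 stretch encodes the hydrophobic signal that is replaced by a glycolipid anchor in red cells. The ACHE-201 stretch encodes the tail by which the synaptic form joins into assemblies. Capitals mark the stop codon.
ACHE-202: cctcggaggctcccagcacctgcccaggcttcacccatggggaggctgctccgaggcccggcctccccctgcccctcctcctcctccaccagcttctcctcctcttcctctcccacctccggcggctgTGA
ACHE-201: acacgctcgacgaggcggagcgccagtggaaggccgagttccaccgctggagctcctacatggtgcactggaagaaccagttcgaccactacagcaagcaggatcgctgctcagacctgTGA

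NT5C3A-208, a transcript annotated for nonsense-mediated decay, holds an exon of 55 bases (chr7:33035934-33035988, GRCh38, minus strand) that NT5C3A-201 lacks. The first 12 bases of that exon bring the reading frame to a stop codon, in capitals.
NT5C3A-208: aagattggaTAA

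RefSeq (GRCh38.p14) gives NT5C3A 2 promoter windows, each from 250 bases before to 50 bases after a start, both on the minus strand. The first (chr7:33062727-33063026) lies at the start from which nearly all NT5C3A reads came, and the second (chr7:33040857-33041156) at an inner start. Capitals mark CCACACCC, a form bound by KLF1 and related factors, in the first, and TGATAA, a form bound by GATA factors, in the second.
NT5C3A outer start: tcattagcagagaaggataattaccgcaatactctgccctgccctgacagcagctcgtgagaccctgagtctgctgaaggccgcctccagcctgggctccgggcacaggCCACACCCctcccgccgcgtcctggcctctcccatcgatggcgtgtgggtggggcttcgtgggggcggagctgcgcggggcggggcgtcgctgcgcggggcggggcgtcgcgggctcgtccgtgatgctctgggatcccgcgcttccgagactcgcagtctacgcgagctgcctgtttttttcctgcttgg
NT5C3A inner start: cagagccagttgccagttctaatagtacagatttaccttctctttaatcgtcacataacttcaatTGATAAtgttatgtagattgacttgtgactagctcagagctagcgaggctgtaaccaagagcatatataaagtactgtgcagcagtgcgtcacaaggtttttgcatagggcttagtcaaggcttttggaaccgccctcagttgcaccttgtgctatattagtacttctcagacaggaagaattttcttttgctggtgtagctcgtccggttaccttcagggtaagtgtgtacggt

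The libraries held between 28318555 and 32352246 estimated reads, and mitochondrially encoded genes took 4.03% to 5.72% of all estimated reads. CDAN1 stood at 45.8% of its uninduced level in induced c1, at 53.7% in induced c2 and at 112% in induced NT. These uninduced levels differed between the clones, with 1 library each and no test. In CPM (counts relative to the library total), CDAN1 was 62.5 for NT, 55.4 for c2 and 37 for c1 without doxycycline. With doxycycline the values were 70.2, 29.8 and 17 CPM for the clones in that order. Uninduced c1, a control library in the knockdown comparison below, thus had the lowest CDAN1 level of the controls. The 14 erythroid markers summed to between 10700 and 15200 CPM, with 10700 and 11900 CPM in c2 and at least 14400 CPM elsewhere. The 12 megakaryocyte and platelet markers summed to 412 and 376 CPM in c2 against 101 to 158 CPM in the other 4 libraries. The 12 granulocyte and monocyte markers summed to 70.5 to 97.4 CPM with ELANE at 0. Most of that sum was LYZ (66.4 to 94.9 CPM), and 5 of the 12 had enough reads to test. The 8 lymphoid markers summed to 9.56 to 24.9 CPM with MS4A1 at 0. Most of that sum was CD3D (7.37 to 23.5 CPM), and 2 of the 8 had enough reads to test.

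Per length, the 8 genes covered a wide range of levels. BLVRB averaged 530 TPM over the 6 libraries and ranked 185 of the 14075 tested genes, and PRDX2 averaged 445 TPM with rank 219. CAT averaged 79.8 TPM and NT5C3A 38 TPM. BPGM (17.7 TPM) and CA1 (16.7 TPM) were near each other. ACHE averaged 6.57 TPM and CA2 2.89 TPM, which placed CA2 at rank 10342. The ranges over the 6 libraries overlapped for the neighbours BLVRB (395 to 655 TPM) and PRDX2 (412 to 480), BPGM (14.2 to 20.7) and CA1 (10.3 to 21.2), and ACHE (4.49 to 7.85) and CA2 (1.12 to 4.92). They did not overlap between PRDX2, CAT, NT5C3A and BPGM or between CA1 and ACHE. Differences below are given in CPM, that is, reads relative to the library total without regard to length. Where a clone's libraries are said to lie above or below those of others, the share of all tested genes that did so was not computed.

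**Figure D1:**
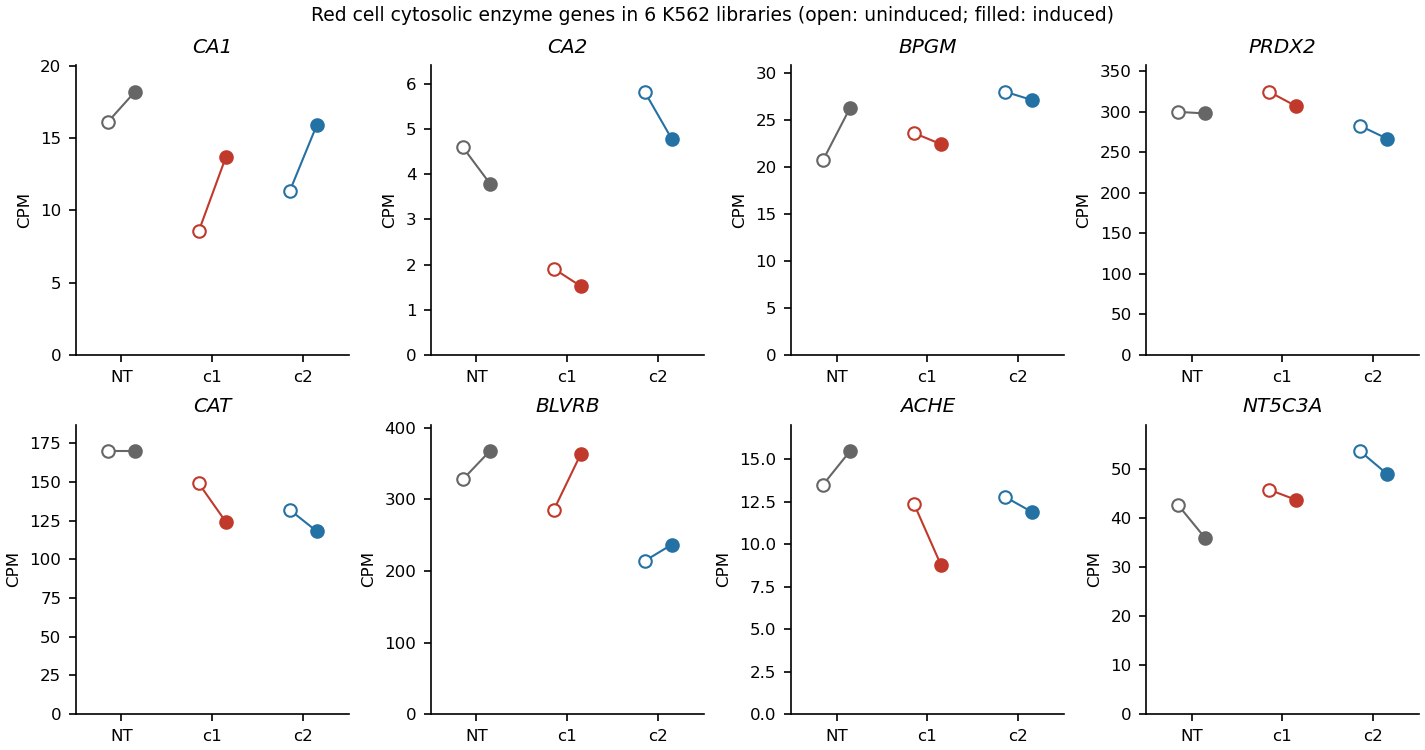
Level of each gene in CPM (vertical axis from 0, a different scale in each panel) in the 3 clones, with open circles for uninduced and filled circles for induced libraries. Each circle is 1 library. CA1 and BLVRB are higher in the induced library of each clone, and CA2 is lower in both c1 libraries than in any other library.

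The carbonic anhydrases differed from each other across the clones. In NT, CA1 (ENSG00000133742, chromosome 8, minus strand) stood at 16.1 CPM uninduced and 18.2 CPM induced. In c1 it stood at 8.55 and 13.7 CPM, and in c2 at 11.3 and 15.9 CPM, in the same order. Each clone's induced library was thus the higher one. By CPM both NT libraries were above both libraries of c1 and of c2. Uninduced NT (426 reads) and induced c2 (479 reads) were nearly equal, and by TPM their order was reversed, at 18.8 and 19.1. CA2 (ENSG00000104267, chromosome 8, plus strand) stood at 4.6 and 3.79 CPM in NT, 1.91 and 1.52 CPM in c1, and 5.83 and 4.78 CPM in c2. The c1 values rest on 54 and 46 reads. The induced library was the lower one in each clone, and the libraries of the 3 clones did not overlap, with c1 lowest and c2 highest.

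BPGM (ENSG00000172331, chr7:134646808-134679813, plus strand) stood at 20.7 CPM uninduced and 26.3 CPM induced in NT, 23.6 and 22.4 CPM in c1, and 28 and 27.1 CPM in c2. The NT pair spanned both c1 values, and both c2 libraries were above all others.

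The peroxide-removing enzymes were both at high levels. PRDX2 (ENSG00000167815, chr19:12796820-12801859, minus strand) stood at 300 and 298 CPM in NT, 325 and 307 CPM in c1, and 283 and 267 CPM in c2. By CPM the c1 libraries were the highest and the c2 libraries the lowest, within a narrow range. By TPM uninduced c2 (439) lay above uninduced NT (435). CAT (ENSG00000121691, chr11:34438925-34472062, plus strand) stood at 170 CPM in both NT libraries, at 149 and 124 CPM in c1, and at 132 and 118 CPM in c2. All 4 libraries of the CDAN1 shRNA clones, uninduced ones included, were below both NT libraries.

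BLVRB (ENSG00000090013, chr19:40447765-40465840, minus strand) stood at 328 CPM uninduced and 368 CPM induced in NT, 285 and 364 CPM in c1, and 214 and 237 CPM in c2. Both c2 libraries were below the other 4, while c1 and NT overlapped.

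NT5C3A (ENSG00000122643, chr7:33014113-33062797, minus strand) stood at 42.7 and 35.9 CPM in NT, 45.8 and 43.7 CPM in c1, and 53.7 and 49 CPM in c2. The clones did not overlap, with NT lowest and c2 highest, and the induced library was the lower one in each. ACHE (ENSG00000087085, chr7:100889994-100896974, minus strand) stood at 13.5 and 15.5 CPM in NT, 12.4 and 8.76 CPM in c1, and 12.8 and 11.9 CPM in c2. Induced c1 was the lowest library, and both NT libraries were above all libraries of c1 and c2.

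The comparison named by the series' design, knockdown (both induced CDAN1 shRNA libraries) against the other 4, called none of the 8 genes. It called 0% of the 14075 tested genes (edgeR's quasi-likelihood test, Benjamini-Hochberg adjusted p under 0.05). At an unadjusted p under 0.05 edgeR marked 322 genes, and DESeq2 called 22 genes and limma voom 0, with 0 of the 8 by either tool. The median log2 fold change was -0.03 over the 8 genes and -0.001 over all tested genes.

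CAT averaged 121 ± 4.03 CPM in the knockdown libraries (SD, n = 2) and 155 ± 18.1 CPM in the controls (SD, n = 4). Its log2 fold change was -0.36 ± 0.12 (SE), with an edgeR p of 0.0204 before adjustment and an adjusted p of 1. ACHE averaged 10.3 ± 2.23 CPM against 13.5 ± 1.35 CPM, a log2 fold change of -0.39 ± 0.19 (SE). CAT and ACHE were the 2 members whose knockdown libraries both lay below all 4 controls. Among tested genes 5.19% lay so, and 4.37% lay above all controls. For the other 6 genes the knockdown libraries overlapped the controls, with log2 fold changes between -0.36 (CA2) and 0.13 (CA1).

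Since each clone gave both libraries, the fit was repeated with the clone as a block, which asks about the change within a clone. The knockdown term of this fit is the change from uninduced to induced in c1 and c2. Knockdown and doxycycline can therefore not be told apart in it. This blocked fit called 0.0426% of tested genes and none of the 8. Its largest value among the 8 was that of CA1, a log2 fold change of 0.58 ± 0.13 (SE; edgeR adjusted p = 0.192), against 0.13 ± 0.31 without the block. CAT was at -0.22 ± 0.06 (adjusted p = 0.261) and BLVRB at 0.25 ± 0.08 (adjusted p = 0.306). CA2 was at -0.30 ± 0.21 (edgeR adjusted p = 0.612), ACHE at -0.30 ± 0.15 (0.483) and PRDX2 at -0.08 ± 0.05 (0.571). BPGM and NT5C3A, near 0 without the block, took the opposite sign with it, at -0.06 ± 0.12 and -0.10 ± 0.10.

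The doxycycline states were compared over all 3 clones, 3 induced libraries against 3 uninduced ones. A clone's response is the difference in log2 CPM between its induced and its uninduced library, which sets 1 library against 1 and carries no test. CA1 responded by 0.18 in NT, 0.67 in c1 and 0.49 in c2, the largest upward responses among the 8 genes in c1 and c2. BLVRB responded by 0.16, 0.35 and 0.15. CA1 and BLVRB were the 2 members above 0 in every clone, where 17.8% of tested genes were.

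CA2 responded by -0.27 in NT, -0.31 in c1 and -0.28 in c2, nearly the same value in each clone, but from few reads and with intervals that include 0. PRDX2 (-0.01, -0.08 and -0.08) and NT5C3A (-0.25, -0.07 and -0.13) were also below 0 in each clone. CAT was at 0.00 in NT, -0.27 in c1 and -0.17 in c2. With CAT counted by its unrounded NT value, 4 members were below 0 in every clone, where 20% of tested genes were. On TPM in place of CPM, the NT response was 0.04 for PRDX2, 0.02 for CAT and -0.10 for NT5C3A. On that scale 2 members, CA2 and NT5C3A, were below 0 in every clone, where 15% of tested genes were.

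**Figure D2:**
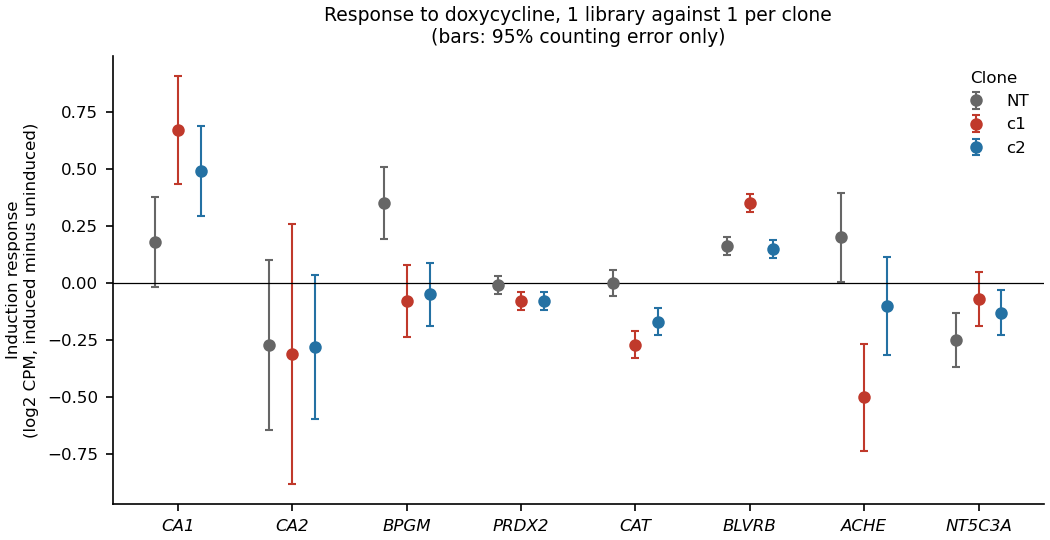
Induction response (log2 CPM, induced minus uninduced) of each gene in NT, c1 and c2, 1 library against 1. Bars are 95% intervals from counting error and do not cover differences between cultures. BPGM and ACHE lie above 0 in NT (0.35 and 0.20) and below 0 in c1 and c2.

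Across the 3 clones, edgeR called 0% of tested genes and none of the 8 for induced against uninduced. It marked 217 genes at an unadjusted p under 0.05, and DESeq2 called 6 genes and voom 0. The median log2 fold change was -0.08 over the 8 genes and -0.005 over all tested genes. With the clone as a block, edgeR called 0.128% of tested genes and again none of the 8. BLVRB reached 0.22 ± 0.05 (SE; edgeR adjusted p = 0.174) and CA1 0.44 ± 0.12 (adjusted p = 0.208), both higher in 3 of 3 clones. Blocked DESeq2 called 143 of 14075 tested genes. Among them was BLVRB, at 0.22 ± 0.06 (DESeq2 adjusted p = 0.0334), and no other member. Blocked voom called 27 genes and no member.

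Whether the CDAN1 shRNA clones responded to doxycycline differently from NT was tested as the difference of the responses. The unblocked edgeR fit called 0% of tested genes and none of the 8, with 79 genes at an unadjusted p under 0.05, 5 called by DESeq2 and 0 by voom. With the clone as a block edgeR called 0.135% of tested genes and none of the 8. BPGM, at 0.35 in NT and -0.08 and -0.05 in c1 and c2, gave a difference of -0.41 ± 0.17 (blocked edgeR, adjusted p = 0.927). ACHE gave -0.50 ± 0.24 and CA1 0.40 ± 0.21 (blocked edgeR, adjusted p of 1 for both). The NT response in these differences rests on 1 pair of libraries.

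In at least 1 of the 3 comparisons between clones 6 of the 8 genes were called, as were 43.2% of tested genes. On simulated data this fit, tried for c1 against NT only, made somewhat more false calls than its threshold states. Each clone's uninduced and induced libraries stood as 2 libraries in 1 fit with a term for doxycycline. In c1 against NT, 3 of the 8 genes were called, all lower, where 27.8% of tested genes were called. The median log2 fold change of the 8 was -0.21, against -0.002 for all tested genes. CA2 was lower by a log2 fold change of -1.29 ± 0.19 (SE; edgeR adjusted p = 0.0031), from 4.19 ± 0.572 CPM in NT to 1.71 ± 0.273 CPM in c1 (SD, n = 2 each). CA1 was lower by -0.65 ± 0.14 (adjusted p = 0.0138) and CAT by -0.32 ± 0.07 (adjusted p = 0.0139). The CA2 call held with every library left out in turn. Those of CA1 and CAT were lost without the doxycycline term (adjusted p = 0.107 and 0.0568). They were also lost without 1 library: CA1 without uninduced NT (0.0895) or uninduced c1 (0.0933), and CAT without induced NT (0.0923) or induced c1 (0.0608). CA1 was not called with transcript length as an offset (0.0598).

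In c2 against NT, 3 of the 8 genes were called, where 21.1% of tested genes were called. BLVRB was lower by -0.62 ± 0.06 (SE; edgeR adjusted p = 0.000644), from 348 ± 27.9 CPM in NT to 226 ± 16.5 CPM in c2 (SD, n = 2 each). CAT was lower by -0.44 ± 0.07 (adjusted p = 0.00473), from 170 ± 0.0334 CPM to 125 ± 10.2 CPM. The 2 NT values of CAT were nearly equal, and an SD from 2 libraries says little about spread. NT5C3A was higher by 0.39 ± 0.08 (adjusted p = 0.0135), from 39.3 ± 4.84 CPM to 51.4 ± 3.27 CPM. The BLVRB and CAT calls held with every library left out in turn. The NT5C3A call was lost without induced NT (adjusted p = 0.0826), uninduced c2 (0.0641) or induced c2 (0.0771). The median of the 8 was -0.18, against -0.001 for all tested genes.

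Between the CDAN1 shRNA clones, c2 against c1, 3 of the 8 genes were called, where 26.8% of tested genes were called. CA2 was higher in c2 by 1.63 ± 0.19 (SE; edgeR adjusted p = 0.000897), with 5.3 ± 0.741 CPM in c2. BLVRB was lower by -0.52 ± 0.06 (adjusted p = 0.00109) and PRDX2 by -0.20 ± 0.05 (adjusted p = 0.0222). The PRDX2 call was lost without the doxycycline term (0.0527), with the length offset (0.0513), and without uninduced c1 (0.0599), uninduced c2 (0.154) or induced c2 (0.265). The median of the 8 was 0.21, against -0.011 for all tested genes. Both clones carry an shRNA against the same gene, and CA2 and BLVRB differed between them. For PRDX2 the call depended on the fit, as given above. The shares called among the 8 genes, 3 of 8 in each clone comparison, are read against shares between 21.1% and 27.8% over all tested genes. Cell type markers differed between the clones as well. In c1 against NT 2 of 14 erythroid markers were called higher and 5 lower, among them ALAS2 (0.96 ± 0.09) and AHSP (-2.68 ± 0.16). Of 11 tested megakaryocyte and platelet markers 1 was called higher and 5 lower, among them ITGA2B (-1.49 ± 0.08). For c2 against NT 8 erythroid markers were called lower and 0 higher, and 9 megakaryocyte and platelet markers higher and 0 lower. Their bearing on the differences of the 8 genes was not tested.

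**Figure D3:**
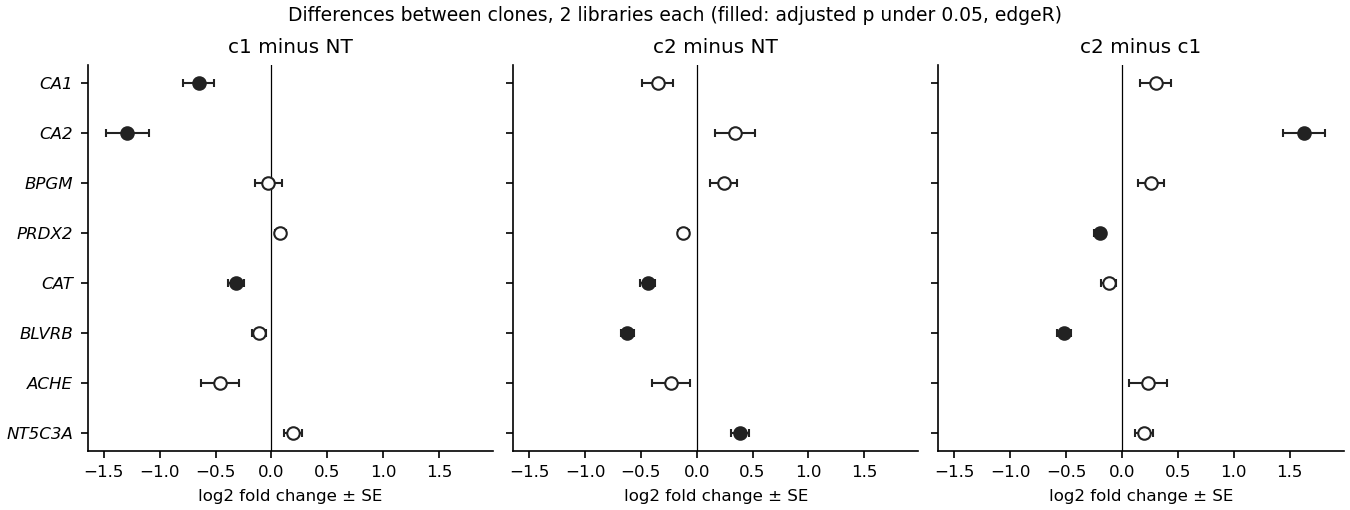
Log2 fold change ± SE of each gene between clones, with 2 libraries per clone, from 1 edgeR fit, on a shared horizontal axis. Filled points passed an adjusted p of 0.05. CA2 spans the widest range, from -1.29 in c1 against NT to 1.63 in c2 against c1.

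For 6 of the genes, 1 transcript took most of the reads. The mean share of a gene's reads was 95.5% for CA1-219, 98.8% for CA2-201, 98.6% for PRDX2-201, 99.1% for CAT-201 and 98.4% for BLVRB-201. BPGM-201 took 87.3% and BPGM-202 11.0%. The second transcripts of the others took between 0.46% (CAT-204) and 1.52% (of CA1). Gene sums for these 6 genes are thus close to the values of the named transcripts.

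ACHE was divided between the ends printed above. Transcripts ending in the anchor-signal stretch (2 transcripts, ACHE-202 and a shorter one) held 56.6% of ACHE reads in uninduced NT and 66.5% in induced NT. They held 76.4% and 79.2% in c1, and 68.1% and 59.1% in c2. The 4 transcripts ending in the tailed stretch, ACHE-201 among them, held 38.9% and 31.6% in NT, 19.0% and 17.4% in c1, and 26.3% and 35.4% in c2. The anchor-signal end was the more frequent one in all 6 libraries, and both c1 libraries had the highest share of it. The Wilson 95% interval of the anchor-signal share was 71.7% to 80.6% in uninduced c1 and 63.2% to 72.6% in uninduced c2, which overlap. In uninduced NT it was 51.4% to 61.6%. These intervals cover counting error on 265 to 412 reads a library and not the error of dividing reads among transcripts. The deposited length of ACHE-202, 2956 bases, equals that in GENCODE 29, while ACHE-201 is listed at 2172 bases against 2168 and the shorter anchor-signal transcript at 2179 against 2289. The ends are those of GENCODE 29, and their form in the authors' index was not tested. In the induced library the share was higher than in the uninduced one for NT and c1 and lower for c2, with no test.

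NT5C3A reads were spread over 3 transcripts. NT5C3A-208, with the stop-bearing exon, held 39.2% and 37.3% in NT, 27.3% and 35.8% in c1, and 39.7% and 39.0% in c2. Uninduced c1 was the library with the lowest share. NT5C3A-201 held 56.7% in uninduced NT and 25.1% in induced NT, while NT5C3A-213 was listed at 0% and 29.6% there. In uninduced c2 NT5C3A-213 was again at 0%, and in uninduced c1 it held 40.6%. In GENCODE 29 the NT5C3A-213 sequence lies whole within that of NT5C3A-201, which is longer by 20 bases at the 5′ end and 17 at the 3′ end. The deposited tables give both as 1670 bases, so the sequences the authors' index held were not quite these. Their summed share was 56.7% and 54.8% in NT, 68.4% and 60.8% in c1, and 54.2% and 56.0% in c2. The shares of the single transcripts swung more between libraries than their sum did, and only the sum is used here.

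**Figure D4:**
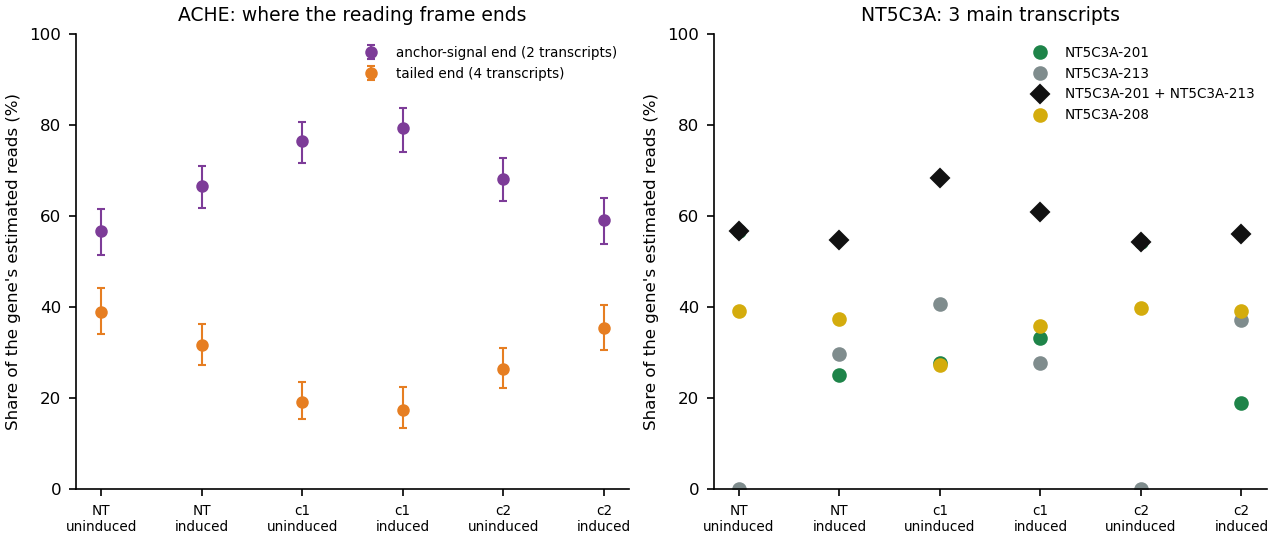
Share of the gene's estimated reads (percent) in each library for the ACHE ends, with Wilson 95% intervals for counting error, and for 3 NT5C3A transcripts with the sum of NT5C3A-201 and NT5C3A-213 as diamonds. The ACHE anchor-signal end lies above the tailed end in all 6 libraries. Where NT5C3A-213 is at 0%, the diamond covers the NT5C3A-201 point.

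Transcripts starting near the outer NT5C3A start held 92.2% to 96.6% of its reads, and those near the inner start 0.227% to 3.51%, from at most 55 reads. For ACHE, transcripts nearest the start at 100895888 held 87.1% to 93.6%, and those nearest the start at 100894606 held 5.63% to 12.9%. The RefSeq promoter windows read here were 9, for 6 of the genes, and windows of CA1 and CA2 were left out. CCACACCC, searched on both strands, was in 2 of the 9, the outer NT5C3A window and that at 100894606 of ACHE, and in 3.28% of all 35116 windows. A GATA form, that is GATA preceded by A or T and followed by A or G on either strand, was in 1 of the 9, the inner NT5C3A window, and in 25.0% of all windows. A match describes letters in the window and shows no binding.

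Other genes of each pathway were read in the same fits. No gene of any of the 6 pathway lists was called in knockdown against controls, induced against uninduced or the difference of responses, with or without the block. In knockdown against controls the list medians lay between -0.09 (nucleotide clearance) and 0.01 (haem breakdown) for the 5 lists with more than 2 tested genes, beside -0.001 for all tested genes. Counts below include the members. Of 15 carbonic anhydrase genes 8 were tested. CA8, which lacks the catalytic activity of the family, had the highest mean at 70.1 CPM, and a knockdown log2 fold change of -0.23 ± 0.09 (not called). In c1 against NT, 1 of the 8 was higher, CA11 at 0.69 ± 0.16 (edgeR adjusted p = 0.0157), and CA1 and CA2 were lower. In c2 against NT none was called. In c2 against c1 the sole call of the family was CA2. The family's medians were 0.04, -0.03 and -0.01 in these 3 comparisons, beside -0.002, -0.001 and -0.011 for all tested genes.

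Of 17 genes for red cell glycolysis 16 were tested, all but PKLR, which was not analysed here. ENO1, an enolase, had the highest mean at 2500 CPM and a knockdown log2 fold change of -0.13 ± 0.09 (not called). In c1 against NT 1 was higher and 3 were lower, led by PGK1 (0.38 ± 0.05), MINPP1 (-0.38 ± 0.08) and ENO1 (-0.23 ± 0.05). MINPP1, like BPGM, acts on 2,3-bisphosphoglycerate, as a phosphatase. In c2 against NT 3 were higher and 2 lower, led by PKM (0.52 ± 0.06), PFKP (0.45 ± 0.07) and PGK1 (0.33 ± 0.05). In c2 against c1 3 were higher, led by PFKP (0.67 ± 0.07), PKM (0.47 ± 0.06) and MINPP1 (0.35 ± 0.08), and 1 was lower. BPGM was called in none of the 3 clone comparisons with all 6 libraries, and the list's medians there were -0.03, -0.03 and 0.00.

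All 21 genes for peroxide and thiol defence were tested. PRDX6 had the highest mean at 520 CPM, with -0.16 ± 0.07 in knockdown against controls (not called). In c1 against NT 5 were higher and 5 lower, led by TXN, thioredoxin (0.54 ± 0.06), GCLM, a subunit of glutathione synthesis (0.48 ± 0.05), and PRDX1 (0.29 ± 0.05). CAT was lower where these were higher. In c2 against NT 3 were higher and 4 lower, with PRDX1 (0.37 ± 0.05) among the higher and CAT among the lower ones. In c2 against c1 1 was higher and 6 lower, led by PRDX4 (-0.42 ± 0.06), GCLM (-0.31 ± 0.05) and TXN (-0.33 ± 0.06), with PRDX2 among the lower ones. PRDX1 and CAT thus lay on opposite sides of NT in both CDAN1 shRNA clones. The list's medians in the 3 comparisons were 0.07, -0.11 and -0.03.

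Of 4 genes for haem breakdown 3 were tested, since HMOX1 had 1 read in 1 library and 0 in the others. BLVRA, the other biliverdin reductase, was higher in c1 than in NT (0.25 ± 0.08, edgeR adjusted p = 0.0427). It was lower in c2 than in NT (-0.30 ± 0.08, adjusted p = 0.0284) and than in c1 (-0.56 ± 0.08, adjusted p = 0.00177). BLVRB and BLVRA were both lower in c2 than in either other clone. The medians of the 3 tested genes were 0.06, -0.30 and -0.52.

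Of 12 genes for nucleotide clearance 11 were tested, NT5C3B being the exception. CMPK1, a pyrimidine nucleotide kinase, had the highest mean at 261 CPM and -0.08 ± 0.08 in knockdown against controls (not called). In c1 against NT 2 were higher and 4 lower, led by NT5C (-0.65 ± 0.11), PNP (-0.24 ± 0.05) and NT5M (-0.89 ± 0.20). In c2 against NT 2 were higher and 2 lower, led by NT5C3A, NT5C (-0.50 ± 0.11) and AMPD3 (-0.36 ± 0.08). In c2 against c1 PNP was higher (0.43 ± 0.05), and AMPD3 (-0.54 ± 0.08) and ADA (-0.72 ± 0.12) were lower. NT5C, a cytosolic deoxyribonucleotidase, was thus lower in c2 than in NT where NT5C3A was higher. The list's medians were -0.01, -0.08 and 0.10.

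Of 4 genes for cholinesterases and their anchors 2 were tested. ACHE was called in no clone comparison with all 6 libraries and the filter on low counts. BCHE, butyrylcholinesterase, stood at 158 and 135 reads in NT, 19 and 32 in c1, and 2 and 3 in c2. It was called lower in c1 than in NT (-2.67 ± 0.30, edgeR adjusted p = 0.000995). Its fitted values in c2 (-5.97 ± 0.42 against NT and -3.29 ± 0.49 against c1) rest on 5 reads in c2 and depend on the prior count. PRIMA1, the membrane anchor of the tailed ACHE form in brain, had 0 reads, and COLQ, its collagen tail in muscle, averaged 0.109 CPM.

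Likeness across the 6 libraries was described by Pearson's r of log2 CPM among genes of at least 10 CPM, with no test. For CA1 the 2 most alike genes were ANKRD16 (r = 0.9979) and PIK3R3 (0.9933), and for CA2 they were EIF3J (0.9995) and TMOD1 (0.9973). For BPGM they were SLC25A33 (0.99) and ATG9A (0.9774), and for PRDX2 COPS5 (0.9922) and MPP1 (0.9894). For CAT they were ATP7B (0.992) and TUBD1 (0.9912), and for BLVRB TELO2 (0.9978) and CDKN2AIPNL (0.9959). For ACHE they were GNA13 (0.9967) and FBXO45 (0.9907), and for NT5C3A CDC42 (0.9925) and DAAM1 (0.9841). With 6 libraries such values are frequent. Of 9094 genes, 239 had r over 0.95 with CA2, and of 9093 genes, 9 had it with BPGM. No member was among another's 2 most alike genes. CA2, with a mean of 3.74 CPM, was below the minimum and could not be listed for another member. With only 2 genes named of 9093, this says little about likeness among the 8. Among the 8 themselves the values ran from -0.89 (BLVRB with NT5C3A) to 0.72 (CAT with ACHE), over libraries that share 3 clones.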

How the data were processed

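Transcript abundance had been estimated by the authors with Salmon 1.5.2 on GRCh37 (hg19), per the submitters' processing notes, in 6 RNA-seq libraries. Per the labels' protocols, total RNA went into a NEBNext Ultra RNA library preparation. Neither the index's annotation nor the strand setting is given in the sources used here, so overlapping and antisense genes cannot be separated with certainty. Per the file headers, the deposited tables give an estimated count, TPM, length and effective length per transcript. Of 167268 transcripts, 151039 (90.3%) matched GENCODE 29 by identifier. The rest, 6.23% to 6.5% of a library's reads, entered neither totals nor tests. GENCODE 29 lies on GRCh38, so coordinates here are its GRCh38 ones and not those of the authors' build. Of 74 transcripts of the 8 genes, 59 have the same length in the deposited tables and in GENCODE 29.

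Estimated counts were summed per gene and rounded to whole numbers. Genes were tested that passed a minimum of 10 counts at the median library size in at least 2 libraries and a total of 15. This left 14075 genes. CPM were scaled by TMM (factors 0.982 to 1.01), and log2 CPM used a prior count of 2. Tests used edgeR 4.0.16 (two-sided quasi-likelihood test, Benjamini-Hochberg adjustment over all tested genes, threshold 0.05) in R 4.3.3. A standard error is the log2 fold change divided by the square root of the F statistic. DESeq2 1.42.0, limma 3.58.1 (voom), other scalings and filters, a length offset, and leaving out each library were alternatives. Some of the edgeR fits were tried on simulated data. These were drawn without differences between clones, apart from genes changed on purpose, so they lack a spread that the real libraries have. The simulated fits, most of all the blocked fit of the difference of responses, made more false calls than the threshold states. The blocked knockdown fit, the unblocked difference of responses, the comparisons with c2, DESeq2, voom and the length offset were not simulated. No 2 libraries agreed within sampling noise.

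The clone pairs the libraries, since per the labels each clone gave both. Deviations from the 3-library mean of each state correlated across genes within a clone (r = 0.608 in NT, 0.679 in c1, 0.741 in c2). Groups came from the sample titles. The members and lists were chosen with earlier results of these data known. All 8 genes were tested in every comparison, but in several comparisons values are printed for only some of them. From each pathway list every called gene is named where at most 3 were called, otherwise the 3 of smallest p, and the gene of highest mean CPM where none was. One gene that this rule names is not reported here. For likeness and for transcripts the top 2 are named. ACHE-201, NT5C3A-213, HMOX1, PRIMA1, COLQ, ALAS2, AHSP, ITGA2B, LYZ and CD3D fall outside these rules and were chosen after their values were seen. Intervals on shares are Wilson 95% intervals and cover counting error only.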

Additional observations from a re-analysis of the deposited data

How the results depend on the processing

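The 8 genes stayed uncalled in knockdown against controls and in the difference of responses under every alternative run, and in induced against uninduced under all but 1, blocked DESeq2, which called BLVRB. Counts over all tested genes moved more. For knockdown against controls edgeR called 0 genes and DESeq2 22. Fits with a replicate block for the clone called 6 (edgeR), 113 (DESeq2) and 16 (voom). With doxycycline as a further term the blocked edgeR fit called 19. That fit is the same as the blocked edgeR fit of the difference of responses. For induced against uninduced DESeq2 called 6 genes, and the block gave 18 (edgeR), 143 (DESeq2) and 27 (voom). Leaving out both libraries of a clone in the blocked edgeR fit, chosen after seeing the data, gave 138 without NT, 3 without c1 and 53 without c2, with no member called. For the difference of responses DESeq2 called 5, and the block gave 19, 8 and 9 in the same order of tools. The causes were not tested. With a length offset the clone comparisons called 2369 (c1 against NT), 1793 (c2 against NT) and 2312 (c2 against c1). With each library left out in turn they ranged from 2224 to 3654, from 1421 to 3496 and from 1973 to 3953, against 3918, 2964 and 3766. The first 3 comparisons stayed at 0 calls, except that the difference of responses could not be fitted without an NT library.

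Signs turned only for values that were not called. In knockdown against controls, doxycycline as a term gave -0.30 for CA1, -0.09 for BPGM (-0.41 with the replicate block) and -0.29 for BLVRB. The block gave -0.06 for BPGM and -0.10 for NT5C3A with all 3 tools. Leaving out each library gave -0.04 to 0.31 for CA1, -1.40 to 0.24 for CA2, -0.14 to 0.13 for BPGM, -0.18 to 0.03 for PRDX2, -0.34 to 0.29 for BLVRB and -0.03 to 0.17 for NT5C3A. In induced against uninduced it gave -0.63 to 0.06 for CA2, -0.03 to 0.20 for BPGM, -0.10 to 0.00 for PRDX2 and -0.31 to 0.09 for ACHE. The blocked fit gave -0.06 for BPGM without NT and 0.05 for ACHE without c1. In the difference of responses the ranges were -1.07 to 1.02 for CA2, -0.18 to 0.04 for PRDX2 and -0.24 to 0.39 for BLVRB. Between clones they were -0.23 to 0.17 for BPGM in c1 against NT, and for ACHE -0.48 to 0.03 in c2 against NT and -0.03 to 0.51 in c2 against c1. ACHE was called in c1 against NT without a filter on low counts (adjusted p = 0.0413), without uninduced NT (0.0325) or without uninduced c1 (0.0373). BLVRB was called there without induced c1 (0.0318). Between c2 and NT, CA1 (0.0487) and BPGM (0.0452) were called without induced NT. Depth limits CA2, with 46 to 170 reads a library, and the ACHE shares.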
